A study of Canis lupus familiaris with 33 samples.

Results

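Peaks of captured methylated DNA marked 450785 regions on the 38 dog autosomes. Of these, 121527 had a peak in all 11 tissues examined, and 10185 of these shared regions differed strongly in enrichment between tissues. These 10185 regions, called variable regions below, were selected on the fold enrichment of their peaks. Within each tissue the highest fold in a region was divided by the median fold of that tissue's peak list, which gives the normalised fold. A region was variable where the largest of the 11 normalised folds was at least 4 times the smallest. They made up 8.38% of the shared regions and 2.26% of all autosomal regions. Because the fold chose them, every fold given below is a description and carries no test.

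The folds came from MBD-seq of healthy adult beagles, an assay that enriches fragmented DNA with a methyl-CpG-binding protein domain. The series held 22 capture libraries and 11 input libraries of brain (cerebellum and cerebrum), digestive tract and glands (stomach, colon, liver and pancreas), reproductive tissues (ovary and mammary gland) and lung, spleen and kidney. Each tissue had 2 capture libraries, both tied to 1 peak list, so no spread between animals can be computed within a tissue and read depth is unknown. One capture library of every tissue came from the same female, called the common female below. The other came from another female in mammary gland and ovary, from the animal titled jj82 (labelled female) in colon and stomach, and from the animal titled jj8 (labelled male) in the remaining 7 tissues. The input came from the common female in mammary gland, ovary, kidney and pancreas. In the other 7 tissues it came from jj8, there labelled female. The labels describe 3 dogs, 1 male and 2 female, whereas the titles carry 4 animal identifiers. Tissues were whole pieces, so a change in the mix of cell types and a change of methylation within a cell type cannot be told apart. Tissue labels were not checked against marker genes here.

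DNA methylation in mammals is the addition of a methyl group to cytosine, mostly where a guanine follows. Most such sites are methylated in most cells, while regulatory elements and parts of genes gain or lose methylation as cell types form. Capture by a methyl-binding domain becomes stronger as a fragment carries more methylated sites. At a fixed region the sequence is the same in every tissue, so the number of sites that could be methylated is the same apart from differences between the dogs.

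Most shared regions varied little. The ratio of the largest to the smallest normalised fold had a median of 2.55 over all shared regions, with 2.14 at the 25th and 3.12 at the 75th percentile. Among the variable regions its median was 4.65. A ratio of at least 5 was reached by 3610 of them, at least 6 by 1565, at least 8 by 402 and at least 10 by 118. The counts fell without a gap across the threshold, as the plot of ratios shows, and the largest ratios were few and scattered. The regions just inside lay on chromosome 5 at 60410700 to 60411187 (ratio 4.00003), chromosome 9 at 11571579 to 11572106 (4.00008) and chromosome 15 at 42178049 to 42180371 (4.0002). Those just outside lay on chromosome 1 at 110356147 to 110357545 (3.99991), chromosome 9 at 48930346 to 48930882 (3.9999) and chromosome 9 at 3342174 to 3343816 (3.99975). All coordinates are in the CanFam3.1 assembly named in the submitters' processing notes.

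**Figure D1:**
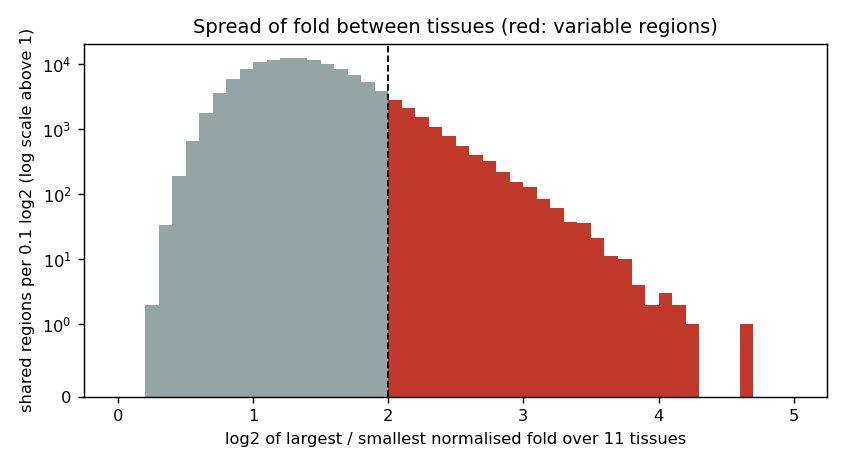
Number of shared regions (log scale above 1) by the log2 ratio of the largest to the smallest normalised fold over 11 tissues, in steps of 0.1. The dashed line marks the threshold, the variable regions are red, and the counts show no break at the line. The single region with a ratio of 25.8 stands apart on the right, beyond 3 empty steps.

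The lowest tissue still had a peak at these regions, since each region needed one in every list. Its deposited fold had a median of 3.99 and its −log10 p-value a median of 10.2, against 20.2 and 108 in the highest tissue. Over all shared regions the corresponding medians were 6.01 and 21.9 in the lowest tissue and 15.3 and 72.4 in the highest. The strongest peak of the highest tissue was 794 bases long at the median and spanned 91.7% of the region, whereas that of the lowest tissue was 388 bases long and spanned 50.4%. In 8757 variable regions, or 86.0%, the strongest peaks of all 11 tissues covered a common base, and this held for 85.7% of all shared regions. The summits of the highest and the lowest tissue lay 43 bases apart at the median, and within 200 bases in 76.3% of the variable regions against 81.0% of all shared regions. A common base does not mean that the tissues were compared over the same stretch, since the peaks of the lowest tissue were shorter.

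The 10 variable regions with the largest ratio among those with a common base are shown first, because they give the scale of the differences. The largest ratio of all, 25.8, belonged to a region of 355 bases on chromosome 33 (635487 to 635841). Its normalised folds were 0.416 in ovary, 1.38 in cerebellum, 1.63 in cerebrum, 1.75 in spleen, 2.50 in liver, 2.85 in stomach, 3.66 in mammary gland, 4.09 in lung, 4.62 in kidney, 7.35 in pancreas and 10.7 in colon. Colon and pancreas stood above the other tissues, and ovary was at the bottom with a deposited fold of 2.72 and a −log10 p-value of 7.28.

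A region of 2096 bases on chromosome 25 (34593425 to 34595520) had a ratio of 18.7, with a normalised fold of 6.64 in mammary gland and 2.43 in lung, the next tissue. The other tissues ran from 1.81 in colon, 1.69 in kidney, 1.61 in stomach and 1.05 in spleen through 0.978 in ovary, 0.977 in pancreas, 0.880 in cerebrum and 0.636 in liver down to 0.356 in cerebellum. Here mammary gland was the tissue set apart at the top. On chromosome 5 (48880738 to 48881626, 889 bases, ratio 17.9) cerebrum was lowest at 0.380 and mammary gland highest at 6.81. The other tissues spanned 1.56 in spleen to 3.33 in stomach. Cerebellum stood at 2.24 among them, so the brain tissues did not go together.

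Cerebellum was the lowest tissue in 8 of these 10 regions. On chromosome 24 (18119580 to 18120545, 966 bases, ratio 16.4) it had a normalised fold of 0.433. The other tissues there were ovary at 1.66, spleen 2.78, cerebrum 2.88, liver 3.20, pancreas 3.36, kidney 3.72, stomach 3.89, colon 4.23, lung 6.02 and mammary gland 7.09. Every tissue other than cerebellum was thus well above its list median. On chromosome 6 (34817140 to 34817686, 547 bases, ratio 14.4) cerebellum had 0.346 and ovary 1.34. Cerebrum, colon, kidney, liver, lung, mammary gland, spleen and stomach then lay between 1.81 and 2.96, and pancreas stood apart at 4.97.

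The other 5 had cerebellum lowest and mammary gland highest. Cerebellum and mammary gland had 0.361 and 6.38 on chromosome 34 (9080115 to 9081921, ratio 17.7), 0.290 and 4.71 on chromosome 20 (54721601 to 54724958, ratio 16.2) and 0.367 and 5.72 on chromosome 22 (49870437 to 49871137, ratio 15.6). They had 0.375 and 5.85 on chromosome 5 (60105405 to 60106687, ratio 15.6) and 0.333 and 4.70 on chromosome 7 (61971930 to 61973337, ratio 14.1). Cerebrum lay at 1.12 to 3.53 in these 5 regions, above cerebellum in each.

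All 10 stayed variable after quantile normalisation, which gives the 11 lists the same distribution of folds over the shared regions. They kept the same lowest tissue in all 10 cases and the same highest tissue in 6, and mammary gland was highest in 8 of the 10 before and in 4 after. Their ratios were smaller on that scale. The ratio on chromosome 25 went from 18.7 to 11.0, that on chromosome 24 from 16.4 to 9.58, that on chromosome 22 from 15.6 to 9.78 and that at 60105405 on chromosome 5 from 15.6 to 9.35, each by a factor above 1.5. Without its lowest tissue, 7 of the 10 still had a ratio of at least 4.

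**Figure D2:**
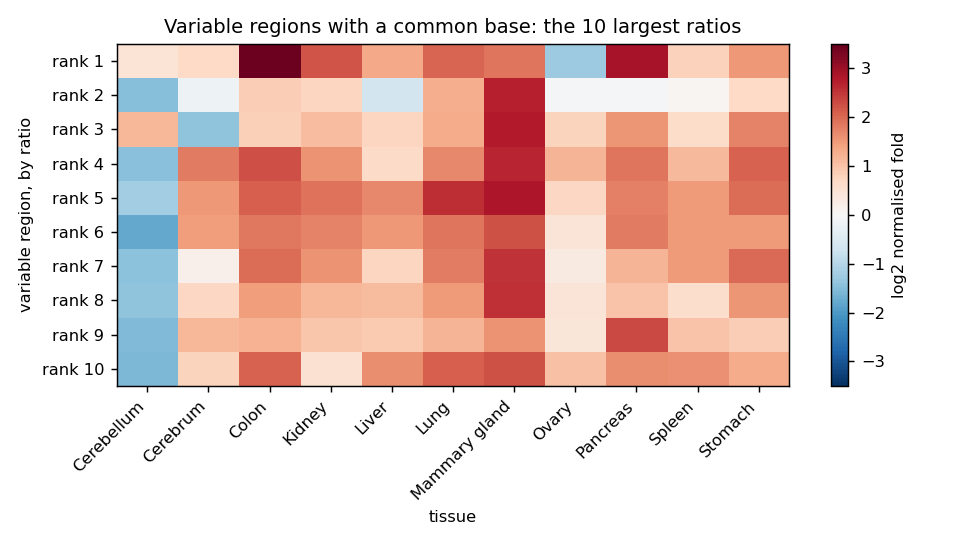
Log2 normalised fold (colour) of the 10 variable regions with the largest ratio among those with a common base (rows, ranked) in 11 tissues (columns). Cerebellum has the lowest value in 8 rows, ovary in the first and cerebrum in the third, and colon in the first row has the highest value, a normalised fold of 10.7.

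Variable regions were mostly defined by a tissue that was low. A tissue was counted as low where its normalised fold was at most the median of the 11 tissues divided by 2, and as high where it was at least 2 times that median. By construction every variable region had at least 1 such tissue. In 7281 of them (71.5%) there were low tissues and no high one, in 1257 (12.3%) high tissues and no low one, and in 1647 (16.2%) both. A single tissue stood apart in 6699 (65.8%), against 23.1% of all shared regions. It was the only low one in 5684 and the only high one in 1015. The rule itself thus tends to raise the shares of a tissue alone low or alone high that are set against all shared regions below. Over all shared regions 20.4% had only low tissues, 6.20% only high ones and 1.36% both. A region with both is variable by construction, since its largest fold is at least 4 times its smallest. A single tissue was low, with none high, in 17.6%, and a single one high, with none low, in 5.52%. Low tissues were thus more frequent than high ones with or without the choice by ratio. Among the variable regions another 1386 had 2 low tissues and none high, 211 had 3 or more low and none high, and at most 4 tissues were low in any region.

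Cerebellum, whose most numerous cells are the granule neurons, was the lowest tissue in 4139 variable regions, or 40.6%, against 15.0% of all shared regions. It was the only low tissue, with none high, in 2883 (28.3%), against 5.52% of all shared regions. Its median normalised fold was 1.13 over the variable regions and 1.55 over all shared regions, and it was the only tissue whose median was lower in the variable regions. The largest ratio among regions where cerebellum alone was low, 16.0, was found on chromosome 20 at 37759680 to 37761238. Cerebellum had 0.320 there and the others lay between 1.44 in cerebrum and 5.13 in mammary gland. The strongest peaks shared no common base in that region.

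Cerebellum was less often at the top. It was the highest tissue in 1023 variable regions (10.0%, against 15.3% of all shared regions) and alone high in 207 (2.03%, against 1.29%). The example with the largest ratio, 6.57, lay on chromosome 8 at 65508526 to 65509441, where cerebellum had 2.18, kidney 1.13 and stomach, the lowest tissue, 0.332, again without a common base. Regions with cerebellum alone low were wider than those with cerebellum alone high, with a median of 1164 against 558 bases.

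Ovary was the next most frequent lowest tissue. It was lowest in 1413 variable regions (13.9%, against 15.8% of all shared regions) and alone low in 763 (7.49%, against 2.77%). The largest ratio among these, 11.8 (6.99 with the length-weighted mean), lay on chromosome 2 at 74327089 to 74328657, where ovary had 0.384, kidney 1.21, cerebrum 1.39 and the other 8 tissues 1.79 to 4.55. Ovary was highest in 1104 (10.8%, against 10.2%) and alone high in 2.40% (against 1.19%). On chromosome 35 at 13396953 to 13397460 ovary reached 2.07 while cerebrum, the next, had 1.05 and pancreas 0.338. The regions with ovary alone low were wider (median 1186 bases) than those with ovary alone high (629.5 bases). The order was the reverse in mammary gland (665.5 against 1371 bases), lung (600.0 against 1296.5), colon (611.5 against 1198), pancreas and spleen.

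Pancreas was lowest in 884 variable regions (8.68%, against 9.87% of all shared regions) and alone low in 408 (4.01%, against 1.43%). On chromosome 10 at 18484919 to 18485461 it had 0.373 and the others ran from kidney, the next lowest, up to 3.77 in mammary gland, a ratio of 10.1. It was highest in 215 (2.11%, against 3.74%) and alone high in 9 (0.0884%, against 0.051%). Its strongest such region, on chromosome 17 at 55495555 to 55496374, had 3.54 in pancreas, 2.53 in kidney and 0.757 in cerebellum.

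Liver was lowest in 852 variable regions (8.37%, against 9.49% of all shared regions) and alone low in 347 (3.41%, against 1.48%). On chromosome 23 at 44236979 to 44237735 liver had 0.675 while the other 10 tissues lay between 1.81 in cerebrum and 6.35 in mammary gland, a ratio of 9.41 (6.27 after quantile normalisation). Liver was highest in 1075 (10.6%, against 9.12%) and alone high in 88 (0.864%, against 0.44%). On chromosome 6 at 42656179 to 42656904 liver had 3.28, colon 1.39 and cerebellum 0.609. Liver, an organ of mostly hepatocytes, was thus found at both ends of the range. The strongest peaks shared no common base in the second of these regions.

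Cerebrum was lowest in 639 variable regions (6.27%, against 7.63% of all shared regions) and alone low in 289 (2.84%, against 1.15%). It was highest in 399 (3.92%, against 8.19%) and alone high in 23 (0.226%, against 0.182%). On chromosome 16 at 44995103 to 44995572 cerebrum had 0.428 and the next lowest tissue, colon, 1.24, a ratio of 7.12 with spleen highest at 3.05. On chromosome 16 at 17048038 to 17048992 cerebrum was highest at 1.92, followed by ovary at 1.18 and cerebellum at 1.07.

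Stomach and colon, the other digestive tissues, were more often low than high in the variable regions, as were all tissues except lung and mammary gland. Over all shared regions, too, stomach and colon were more often alone low than alone high. Stomach was low in 524 variable regions (5.14%, against 1.37% of all shared regions) and high in 14, and colon was low in 366 (3.59%, against 1.28%) and high in 59. Stomach was lowest in 570 (5.60%, against 7.07% of all shared regions), alone low in 217 (2.13%, against 0.936%), highest in 196 (1.92%, against 4.9%) and alone high in 1 (0.00982%, against 0.028%). On chromosome 34 at 9727571 to 9728326 stomach had 0.228, with colon at 0.527 next and cerebellum highest at 1.67. Its only region alone high lay on chromosome 29 at 39487682 to 39488230, at 2.16 against 1.39 in mammary gland, and its ratio was 3.70 after quantile normalisation, below the threshold. Colon was lowest in 390 (3.83%, against 8.12%), alone low in 170 (1.67%, against 0.964%), highest in 452 (4.44%, against 3.97%) and alone high in 9 (0.0884%, against 0.0362%). Its lowest example, on chromosome 14 at 37219081 to 37220311, had 0.245 in colon, 0.490 in stomach and 1.53 in cerebellum. At 2.81 on chromosome 3 (53040768 to 53041587), colon was followed by spleen at 2.06.

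Spleen was lowest in 402 (3.95%, against 7.87% of all shared regions), alone low in 198 (1.94%, against 1.08%), highest in 889 (8.73%, against 7.79%) and alone high in 46 (0.452%, against 0.175%). On chromosome 27 at 36935976 to 36936467 spleen had 3.74 and lung, the next, 1.66. On chromosome 32 at 456860 to 457647 spleen had 0.461 and liver, the next, 1.56. Kidney was lowest in 279 (2.74%, against 5.37%), alone low in 134 (1.32%, against 0.609%), highest in 569 (5.59%, against 7.17%) and alone high in 16 (0.157%, against 0.147%). On chromosome 17 at 12190896 to 12192112 kidney had 0.261 and every other tissue at least 0.861. Its top example, on chromosome 8 at 67989758 to 67990605, had 1.98 in kidney and 1.38 in ovary.

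Mammary gland and lung lay at the opposite end. Mammary gland was highest in 2712 variable regions (26.6%, against 16.6% of all shared regions) and alone high in 332 (3.26%, against 1.69%). It was lowest in 359 (3.52%, against 7.27%) and alone low in 182 (1.79%, against 0.958%). On chromosome 11 at 32876611 to 32877359 mammary gland had 5.39 and colon, the next, 1.83, a ratio of 8.35. On chromosome 20 at 48616249 to 48619399 it was lowest at 0.357, with stomach next at 0.723, although the strongest peaks shared no base there. Lung was highest in 1551 (15.2%, against 13.0%) and alone high in 40 (0.393%, against 0.293%), and it was lowest in 258 (2.53%, against 6.49%) and alone low in 93 (0.913%, against 0.662%). On chromosome 2 at 30236913 to 30237465 lung had 2.62 and mammary gland, the next, 1.76. On chromosome 36 at 30080264 to 30080938 lung had 0.342 and mammary gland, again the next, 0.750.

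The position of mammary gland and lung at the top changed with the scaling of the lists. The 90th percentile of the normalised fold over all shared regions was 4.53 in mammary gland and 4.21 in lung, and 2.27 in ovary, the lowest of the 11. After quantile normalisation, which also moved other tissues, 11623 regions were variable. Mammary gland was then highest in 2.91% of them and lung in 2.15%, against 5.80% and 4.33% of all shared regions on that scale. Ovary was highest in 32.0% and liver in 17.3%, against 16.6% and 12.5%. Of the 2712 regions with mammary gland highest, 318 (11.7%) stayed variable with the same highest tissue, and of the 1551 with lung highest 226 (14.6%) did. Cerebellum was highest in 15.6%, cerebrum in 7.46% and pancreas in 5.17%, against 17.5%, 11.4% and 7.45% of all shared regions. At the bottom, lung was lowest in 6.74% (6.78% of all shared regions on that scale), kidney in 6.87% (8.19%), mammary gland in 5.64% (6.64%) and pancreas in 5.58% (7.31%), so the low share of lung among the lowest tissues was not seen on that scale. Cerebellum kept its place at the bottom, as the lowest tissue in 31.7% of the regions variable after quantile normalisation against 14.9% of all shared regions. Of the 4139 regions with cerebellum lowest, 3141 (75.9%) stayed variable with cerebellum lowest.

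**Figure D3:**
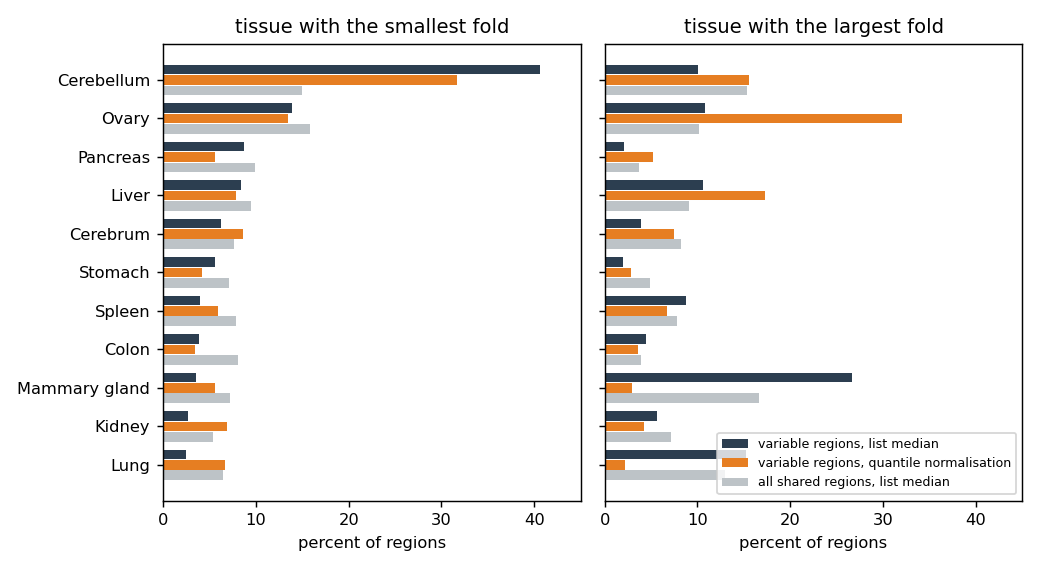
Percent of regions in which each tissue had the smallest (left) or the largest (right) fold, for variable regions (dark), regions variable after quantile normalisation (orange) and all shared regions (grey). Cerebellum has the longest dark and orange bars on the left, 40.6% and 31.7%, whereas the dark bars of mammary gland and lung on the right, 26.6% and 15.2%, shrink to 2.91% and 2.15%.

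The tissue that was lowest or highest differed with the level of a region, taken as the median normalised fold of the 11 tissues. With the shared regions in deciles of level, 7.95% of the lowest decile were variable, 5.34% of decile 3 and 11.9% of decile 8. Among the variable regions of these deciles, cerebellum was lowest in 4.97% at the lowest level, in 62.4% in decile 8 and in 39.5% at the highest level, against 6.16%, 23.5% and 17.8% of all shared regions of the same deciles. Ovary was lowest in 1.76% of the variable regions of the lowest decile and in 28.2% of those of the highest, against 3.25% and 45.8% of all shared regions. Mammary gland was highest in 1.45% and 72.1%, against 4.31% and 60.01%, on the scale on which it has the highest 90th percentile of the 11 tissues. Level is taken from the same folds that chose the regions. In deciles of width, 0.952% of the narrowest regions (258 to 352 bases) were variable, 11.5% of those of 983 to 1242 bases and 7.70% of the widest. How level and width enter the differences between tissues was not tested. The variable regions had a median width of 966 bases and covered 13.4 Mb, and the median over all shared regions was 798 bases. They held 1 peak per list in 65.9% of cases, against 67.6% of all shared regions.

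The pair with the highest count of regions where both were low was cerebellum and ovary, the tissues most often low by themselves. Both were low in 445 variable regions, which is 10.4% of the regions with low cerebellum and 25.7% of those with low ovary. Over all shared regions both were low in 700, and cerebellum was low in 14.0% of the regions with low ovary against 7.27% of all. Within the variable regions cerebellum was low in 41.9%, but the ratio that chose them affects how often tissues are low together, so no association is read from them. Cerebellum and ovary were the 2 highest tissues in 6.74% of the variable regions, against 5.68% of all shared regions. Cerebellum and cerebrum were both low in 261, which is 31.2% of the regions with low cerebrum and 6.11% of those with low cerebellum. Over all shared regions cerebellum was low in 17.9% of the regions with low cerebrum. Cerebellum and cerebrum were the 2 highest tissues in 2.88% of the variable regions, against 4.67% of all shared regions. The brain tissues were opposed, 1 low and the other high, in 13 regions, and any such region is variable by construction. Lung and mammary gland were the 2 highest tissues in 1860 variable regions (18.3%), against 11.3% of all shared regions.

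The tissues were also compared by input animal. All 4 tissues with the input of the common female lay above the 7 with the input of jj8 in 8 variable regions (0.0785%), against 0.105% of all shared regions. They lay below in 11 (0.108%), against 0.239%. The largest ratio among these 19 regions was 7.05, on chromosome 33 at 26815702 to 26816361, where the mean normalised fold was 0.602 with the input of the common female and 1.51 with that of jj8, and pancreas was lowest and spleen highest. The lowest tissue had the input of jj8 in 71.2% of the variable regions, against 61.7% of all shared regions, and cerebellum is among those tissues. The highest had the input of the common female in 45.2%, against 37.7%. The part of the input animal in these shares was not tested.

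Around the variable regions, regions with a peak in some tissues only were examined, since the rule did not use them. In the 10 kb on either side of regions where cerebellum alone was low lay 13998 such regions, and cerebellum had a peak in 27.1% of them. Near shared regions in general it had a peak in 57.2% of 204413. For ovary the values were 55.1% near regions where it alone was low and 64.3% in general, and for cerebrum 42.9% and 49.98%. For colon they were 27.2% and 31.2%, for kidney 38.1% and 49.3%, for liver 43.9% and 46.3%, for lung 33.6% and 38.5% and for mammary gland 27.3% and 34.5%. For pancreas they were 28.8% and 30.9%, for spleen 35.4% and 37.8% and for stomach 28.8% and 33.8%. All 11 tissues thus had fewer peaks around the regions where they alone were low, and cerebellum had the largest gap. Around regions where a tissue alone was high, 10 of 11 had more peaks than in general, with 35.1% against 30.9% in pancreas, 57.1% against 38.5% in lung, 64.7% against 46.3% in liver and 74.6% against 57.2% in cerebellum. The gap was largest in lung and smallest in pancreas among these 10. Stomach, with 1 such region and 2 neighbours, had a peak in neither. These shares come from the same lists as the folds and neighbouring regions are not independent, so no test was made.

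Variable regions were found on every autosome. Their share of the shared regions was lowest on chromosome 32 (38 of 877, 4.33%) and chromosome 22 (6.57%) and highest on chromosome 9 (532 of 4953, 10.7%), chromosome 20 (10.4%) and chromosome 26 (10.1%). The other 33 autosomes lay between 7% and 10%. Cerebellum was lowest in 53.8% of the variable regions of chromosome 20, 53.6% of those of chromosome 9 and 18.3% of those of chromosome 33, the lowest share. In the last 2 Mb before the most distal shared region of each chromosome 9.76% of shared regions were variable, against 8.25% elsewhere. The shares were 9.38% and 8.33% with 1 Mb and 9.46% and 8.14% with 5 Mb.

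Variable regions were grouped by their distance. With gaps of at most 100 kb between neighbours, 8025 of them (78.8%) fell into 1803 clusters, with a median of 3 regions, and 142 clusters held 10 or more. Shared regions in general are far more numerous, and 99.4% of them had another shared region within 100 kb, so the 78.8% does not set the variable regions apart. Cerebellum was the most frequent lowest tissue in each of the 5 clusters with the most variable regions. Of the 2883 regions where cerebellum alone was low, 64.4% had another such region within 100 kb, against 26.1% of the 763 for ovary, 14.7% of the 408 for pancreas, 10.7% of the 347 for liver and 10.4% of the 289 for cerebrum. The lists differ in length, and its part in these shares was not tested. The largest cluster of 1 tissue alone low held 49 regions for cerebellum, 5 for ovary (chromosome 37 at 24624663 to 24807921) and 5 for pancreas (chromosome 2 at 82074209 to 82206748). In that pancreas cluster the median normalised fold was 0.345 in pancreas, where the median level was 1.53. The largest for liver held 3 regions and lay on chromosome 31 at 38815200 to 38923276.

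The cluster with the most variable regions lay on chromosome 9 at 1653383 to 2356768. It held 70 variable regions among 136 shared ones (51.5%) in 703 kb, and cerebellum was lowest in 65 of the 70. The median normalised fold over the 70 regions was 0.635 in cerebellum and 1.75 in ovary, the next tissue. It was 2.19 in cerebrum, 2.34 in pancreas, 2.48 in spleen, 2.49 in colon, 2.60 in kidney, 2.60 in liver, 2.63 in stomach, 3.02 in mammary gland and 3.35 in lung. No tissue other than cerebellum had a median below 1.7. After quantile normalisation 63 regions in this interval were variable, 57 of them with cerebellum lowest, and with the length-weighted mean 68 were variable. The strongest peaks shared a base in 42 of the 70.

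Most of them lay in the later 351.693 kb, from 2005076 to 2356768. There 55 of 67 shared regions (82.1%) were variable, and cerebellum was the lowest tissue in 66 of the 67, variable or not. Its normalised fold had a median of 0.638 and ranged from 0.337 to 1.57, where the median of the other 10 tissues was 2.43. In the earlier 351.693 kb of the cluster, 15 of 69 shared regions were variable and the cerebellum median was 1.67. In the 300 kb before the cluster 2 of 74 were variable, with a cerebellum median of 2.11, and in the 300 kb after it 5 of 79, with 1.70. The median of the other 10 tissues was 2.68 before the cluster, 2.38 in its earlier part, 2.43 in its later part and 1.94 after it. A cluster ends where the next variable region is over 100 kb away, so the nearest 100 kb of each flank hold none by construction. Cerebellum was below the others by far more in the later part than on either side of it, a contrast that this rule favours. Peak presence was lower in cerebellum over the whole cluster. In its earlier part 59.1% of the regions of any kind had a peak in cerebellum and 71.4% to 79.9% in the other tissues. Of the 142 regions of any kind in the later part, 47.2% had a peak in cerebellum and 77.5% to 93.0% in the other tissues, and in the 300 kb after it the shares were 79.2% and 73.1% to 88.5%.

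With gaps of at most 10 kb, 2 runs of 10 or more variable regions were found, and both were in this interval. One, at 2167557 to 2260817, held 20 variable regions among 21 shared ones in 93.3 kb, and the other, at 2077220 to 2155326, held 16, which were all the shared regions there, in 78.1 kb. Cerebellum was lowest in all 20 and in all 16. The division of the cluster and its flanks was set after the values of the cluster had been seen.

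**Figure D4:**
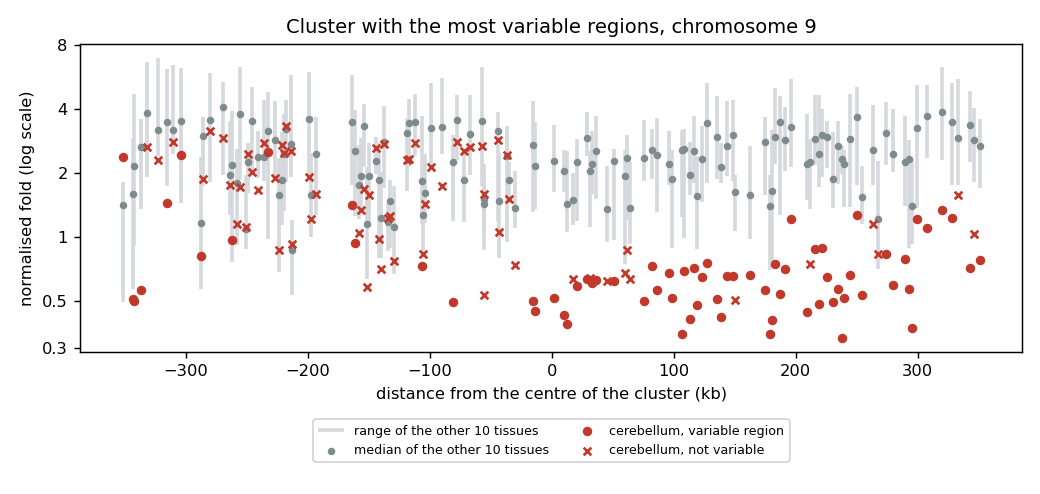
Normalised fold (log scale) of the 136 shared regions in the chromosome 9 cluster by distance from its centre in kb, with cerebellum in red (circles where the region is variable, crosses where it is not), the median of the other 10 tissues as grey points and their range as grey bars. Right of the centre the red symbols lie below the grey points almost throughout, with a cerebellum median of 0.638 against 2.43.

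The next 4 clusters were longer and less dense. On chromosome 20, 57 of 312 shared regions at 54721601 to 56117495 were variable (18.3%), with cerebellum lowest in 39 and a cerebellum median of 0.749. Another 48 of 256 at 56560570 to 57995231 were variable (18.8%), with cerebellum lowest in 24 and ovary in 13 and a cerebellum median of 0.965. After quantile normalisation 31 regions were variable there, 18 of them with cerebellum lowest. This cluster ended 0.139 Mb before the last shared region of the chromosome. On chromosome 13 it was 51 of 275 at 36911059 to 38133648 (18.5%), with cerebellum lowest in 32 and ovary in 9 and a cerebellum median of 0.859. On chromosome 4 it was 32 of 159 at 28335621 to 29109390 (20.1%), with cerebellum lowest in 25 and a cerebellum median of 0.622, and the strongest peaks shared a base in 20 of the 32. In these 4 clusters cerebellum was lowest in 15.9% to 33.1% of the shared regions that were not variable. On all autosomes together it was lowest in 12.7% of such regions.

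Neighbouring variable regions tended to have the same lowest tissue. Among 1802 neighbouring pairs at most 10 kb apart, 890 (49.4%) shared it. The share was 29.6% at gaps of 10 to 100 kb (4420 pairs) and 20.0% at 100 to 1000 kb (3467 pairs). For shared regions that were not variable it was 14.4%, 11.4% and 10.5% over the same gaps. Cerebellum was lowest in 40.6% of the variable regions and in 12.7% of the shared regions that were not variable. Such a difference alone changes how often neighbours share a lowest tissue. The levels of the 2 sets are therefore not compared, only the change with distance within each. The highest tissue was shared by 23.9%, 18.5% and 17.1% of the pairs of variable regions. When cerebellum was the lowest tissue and the neighbour lay within 10 kb, 74.8% of the neighbours also had cerebellum lowest, against 39.7% at 100 to 1000 kb. For ovary these shares were 24.3% and 19.1%, for pancreas 21.8% and 10.0%, for liver 20.4% and 8.92% and for cerebrum 10.5% and 12.0%. They were 8.82% and 3.49% for kidney, 7.02% and 1.96% for lung and 7.32% and 5.63% for mammary gland. For stomach they were 7.75% and 6.55%, for colon 5.88% and 7.52% and for spleen 4.04% and 4.88%. The near share was thus not above the far one in cerebrum, colon and spleen.

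With cerebellum left out of the ratio, 5585 regions remained variable and the same lowest tissue was found in 27.3% of 490 pairs within 10 kb, 19.5% of those at 10 to 100 kb and 16.7% of those at 100 to 1000 kb. Without the chromosome 9 cluster, the share within 10 kb was 47.9%. The decline with distance was thus seen without cerebellum and without the densest cluster, though at a lower level in the former case.

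**Figure D5:**
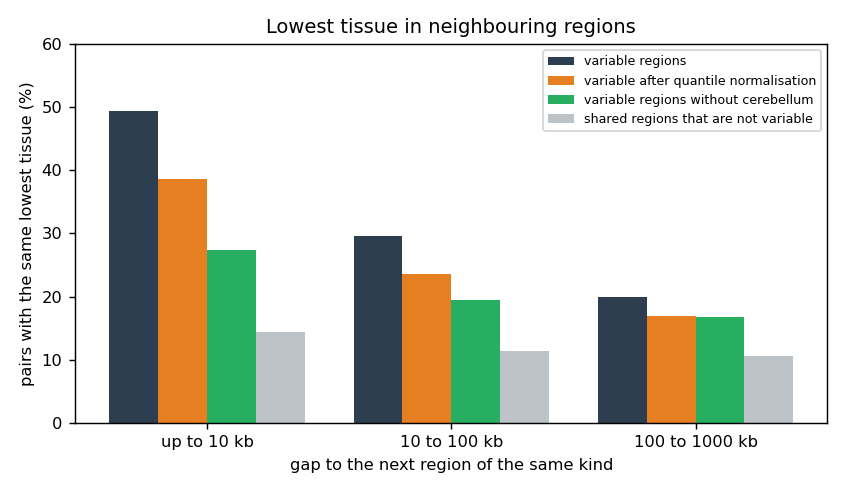
Percent of neighbouring pairs of regions with the same lowest tissue, by the gap between them, for variable regions (dark), regions variable after quantile normalisation (orange), variable regions without cerebellum (green) and shared regions that are not variable (grey). The dark bars fall from 49.4% to 20.0% and the grey bars from 14.4% to 10.5%.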

How the data were processed

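Peak lists of 11 tissues, 1 per tissue, were analysed. Per the submitters' processing notes the build is CanFam3.1. The aligner, peak caller, filters and the way the 2 capture libraries of a tissue were combined are not given in the sources used here. The lists have no header, so the meaning of a column follows its position in a standard narrow-peak list. The authors deposited for each peak a score, a signal value taken as a ratio (fold enrichment) over a control no label states, and a −log10 p-value. The score was not used. The last deposited column, the summit offset in bases, gave summit distances.

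Autosomal peaks that overlapped or touched were merged, and the highest fold per list and region was divided by the median fold of that list. No test was made, since the fold chose the regions. No group had 4 to 10 samples, so no screen for outlying samples applied. The variable regions, named regions and settings were chosen with earlier results of these data known. Named regions were the 10 with the largest ratio among those with a common base, the largest of all, the largest for each tissue alone low or alone high, the 5 largest clusters and the 3 on each side of the threshold. The division of the largest cluster, the single-tissue clusters and the runs within 10 kb were chosen after their values were seen. Alternatives were other normalisations (median over shared regions, quantile normalisation, fold as deposited), a length-weighted mean, ratios of 3 and 5, a 50-base overlap, subsets of regions, other factors and gaps, and leaving out each tissue. Planned gene lists and sequences were not used here, because the gene table at hand is of another assembly. The procedure was tested on simulated lists. Python 3.11.15 with numpy 2.4.6, pandas 2.3.3, scipy 1.17.1 and matplotlib 3.10.9 was used.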

Additional observations from a re-analysis of the deposited data

How the results depend on the processing

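The number of variable regions was 10185. It stayed within 1.5 times with the length-weighted mean, the median over shared regions, quantile normalisation, the fold as deposited, the 50-base overlap and a common base. It was 35321 with a ratio of 3, 3610 with a ratio of 5, 6713 with only regions of 1 peak per list, and 1808 with only the strongest 50% of the peaks per list, where 47916 regions were shared. Leaving out 1 tissue gave 5585 (without cerebellum) to 9718 (without colon). A similar number does not mean the same regions. Of the 10185, 73.0% stayed variable after quantile normalisation and 84.3% with the fold as deposited. The shares were 94.5% with the median over shared regions and 95.6% with the length-weighted mean. All of these, a common base and the same lowest tissue after quantile normalisation were met together by 5244. Cerebellum was lowest in 40.6% of variable regions, in 43.5% with the median over shared regions, 31.7% with quantile normalisation and 39.1% with a common base. Mammary gland was highest in 26.6%, and in 34.0% and 2.91% with the first and the second of these scalings. Lung was highest in 15.2%, and in 13.1% and 2.15%. A single tissue stood apart in 6699 regions, in 650 with a factor of 1.5 and in 3681 with a factor of 3. The input animals separated the tissues in 19 regions and in 41 after quantile normalisation. Clusters held 8025 regions and 3079 with gaps of 10 kb. A common base was found in 86.0%, and in 86.8% after quantile normalisation. Neighbours within 10 kb shared the lowest tissue in 49.4% of pairs, in 38.6% after quantile normalisation, 46.1% with a common base and 27.3% without cerebellum. The alternatives for neighbours and the quantile value of the common base were chosen after seeing the data. The cause of these shifts was not tested. No paired analysis was possible because each tissue has a single list for its 2 libraries. Depth is unknown, so the precision of single folds is not known.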
